A study of Sus scrofa with 85 samples.

Results

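The infarcted (apical) region of the left ventricle was compared with the non-infarcted (lateral) region at 1–3 h, the hours in which the heart was reperfused after an occlusion of the distal left anterior descending artery, in 12 RNA-seq libraries of endomyocardial micro-biopsies (micro-EMB). A library was kept when its total count was at least 1000000 and its 10 most counted genes held between 7% and 60% of its counts, which left 9 of 11 apical and 3 of 6 lateral libraries, 12 of the 85 libraries of the series. The rule used no expression difference between the regions. All libraries came from 3 female farm pigs of mixed Yorkshire and Swedish breed with no engineered allele, called swine 1640, 1644 and 5385. Each animal had its artery closed by a balloon for 1 hour and then reopened, so that the lateral libraries came from the same operated hearts as the apical ones and not from untreated animals. Biopsies at the apex were aimed at the infarcted wall and lateral ones at the basolateral wall, and no histology of a biopsy was used here. In the paper, 2 biopsies of 1 animal aimed at the non-infarcted wall grouped with infarcted ones of 1–3 h. The authors held inaccurate sampling to be most likely, which was not tested here, and the labels do not mark these biopsies. The paper's text gives no timepoint for them, so they need not be among the lateral libraries used here. It kept 2 non-infarcted samples of 1–3 h, against 3 here. The 9 apical libraries were 7, 8 and 11 of swine 1640, 2, 3 and 6 of swine 1644, and 4, 9 and 10 of swine 5385. The 3 lateral libraries were 4 and 5 of swine 1644 and 6 of swine 5385, so swine 1640 had no lateral library and swine 5385 had 1. Library numbers are names only. Beside them stand 4 baseline libraries that passed the same rule, 1 from swine 1640, 1 from swine 1644 and 2 from swine 5385, taken before the occlusion and, although labelled apical, not aimed at a region. Libraries of 1 animal are repeated samples of it, so the tests below measure the spread between biopsies more than between animals.

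When heart muscle loses its blood supply and is then reperfused, cells switch on immediate early genes. These respond to a stimulus without new protein synthesis, and many encode transcription factors. Heat shock proteins, which refold damaged proteins, follow, as do cytokines and adhesion molecules that draw leukocytes into the injured wall. All of these responses are known from the hours after reperfusion of the heart.

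The 12 libraries held 5886133 to 10888848 counts, and 13043 to 20060 genes reached a CPM (counts scaled to a library total of 1000000) of at least 1. The 5 libraries left out had 1.42% to 6.33% of their counts in their 10 most counted genes and 22743 to 23064 genes at that level. Marker sums set 2 of the 12 libraries apart. Cardiomyocyte markers summed to 90.3 CPM in apical library 6 and 1846 CPM in lateral library 4, both of swine 1644, and to between 14723 and 58029 CPM in the other 10. Fibroblast markers summed to 84017 and 29338 CPM in these 2 libraries and to at most 21834 CPM in the others. Both lay beyond the limit of 25 on the second principal component of all 57 libraries that passed the rule, and are called the fibrous libraries below. The paper left out 6 outlier samples with raised collagen genes, which it took to be fibrous. The labels do not say whether these 2 libraries were among them. The paper kept 8 infarcted and 2 non-infarcted samples of 1–3 h, the numbers left here without these 2 libraries. They were thus probably among the 6. Lateral libraries 5 and 6, which would then remain, are of different animals. The 2 fibrous libraries stay in every fit here unless stated. The 1 baseline library of swine 1644 also stood apart, with cardiomyocyte markers between the sums of the 2 fibrous libraries, fibroblast markers at 40063 CPM and adipocyte markers at 3493 CPM. It lay beyond the same limit, at 53.9, and is 1 of the 4 behind every baseline range. Of the 10 cardiomyocyte markers with an identifier, 9 were counted in all 12 libraries, whereas TNNI3, cardiac troponin I, was at 0 in 8 of them and had at most 16 reads. Erythroid markers, mainly HBB, summed to between 3332 and 5897 CPM in the 4 libraries of swine 5385 and to at most 94.2 CPM in the other 8, and the 2 baseline libraries of swine 5385 held 3772 and 4078 CPM. HBM and ALAS2 were at 0 in all 12 libraries, and AHSP and SLC4A1 had at most 8 and 80 reads. In biopsies, fewer cells of a type and less RNA per cell cannot be told apart.

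**Figure D1:**
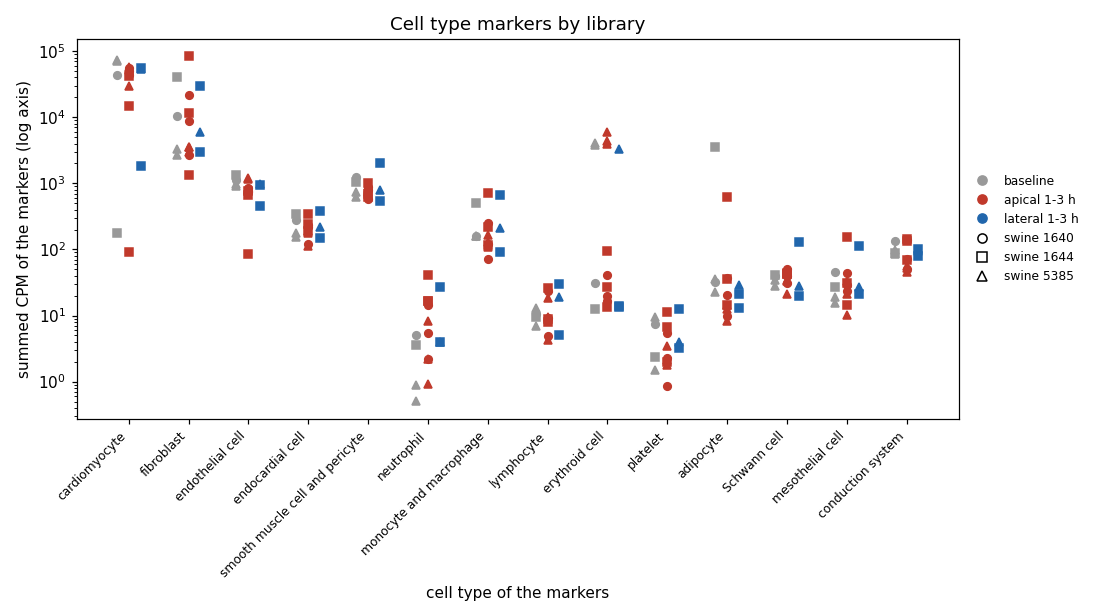
Summed level of cell type markers (CPM, log scale) in each library, with 1 point per library and colours for baseline, apical and lateral. Apical library 6, lateral library 4 and the baseline library of swine 1644 lie far below the others for cardiomyocyte markers and above them for fibroblast markers, and lateral library 4 stands alone for Schwann cell markers.

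The first question was which genes differed between the infarcted and the non-infarcted region while the injury was hours old. No gene passed an adjusted p of 0.05 (edgeR's quasi-likelihood test, adjusted by Benjamini-Hochberg over all genes), 0 of 18201 tested, which is 0%, in either direction. The lowest adjusted p was 0.223, and the biological coefficient of variation between libraries was 0.728. An unadjusted p under 0.05 was reached by 287 genes (1.58%), of which 70 were higher in the apical libraries (0.385% of those tested) and the others lower (1.19%). By chance alone about 910 genes would be under that threshold. DESeq2 called 5 genes (0.0275%) and gave 447 at an unadjusted p under 0.05, whereas limma-voom called 0 and gave 230. The balance of directions depended on the choice, since 316 of DESeq2's 447 genes were higher in the apical libraries but 53 of limma-voom's 230. With all micro-EMB libraries of the rule in 1 fit, which shares the estimate of spread with the other timepoints, 12 genes (0.0663%) passed, all lower in the apical libraries. The median fitted difference over all genes was 0.07 on the log2 scale, and 56.0% of genes were above 0, against which each gene list below is read.

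Most of the genes lower in the apical libraries at an unadjusted p under 0.05 had their highest level in 1 lateral biopsy. Of these genes, 170 had their highest level in lateral library 4, 35 in lateral library 5, 11 in lateral library 6 and 1 in an apical library. Genes picked as lower mostly peak in a lateral library by construction, and the share of all genes peaking in lateral library 4 was not taken. These counts, and those of the next sentence, are therefore descriptions. Among the 30 genes with a symbol and the smallest p in either direction, 28 were lower in the apical libraries and 27 peaked in lateral library 4. These included GFAP, a filament protein of glia, with a log2 difference of -6.81 (SE 1.11), which was named after its values were seen. The Schwann cell markers MBP and SOX10 summed to 128 CPM in lateral library 4, 19.5 and 28.1 CPM in the other lateral libraries and 21.4 to 50.3 CPM in the 9 apical ones, so that apart from lateral library 4 the regions overlapped. The part of these cells in the lower genes was not tested. Without apical library 6 and lateral library 4, 61 of the 287 genes still had an unadjusted p under 0.05.

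In 51 genes the regions did not overlap. Every apical library lay above every lateral library in 6 genes (0.033%) and below in 45 (0.247%), and the gap between the regions was at most 0.54 and 0.55 on the log2 scale. The 12 libraries can be divided into 9 and 3 in 220 ways. If libraries were interchangeable, chance alone would give a fraction of 0.0045 of the genes in each direction, which is above both shares. Since these genes were picked for not overlapping, which also fixes the sign within each swine, their differences and p-values are given as descriptions, and none passed the adjusted threshold.

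UPP1, uridine phosphorylase 1 of pyrimidine salvage (ENSSSCG00000030388, chromosome 18 of Sscrofa11.1, 48418385 to 48440414), had apical levels from 1.68 to 4.08 log2 CPM with a median of 2.94. Its lateral levels were 0.96, 1.14 and 0.90, and its baseline levels ran from -2.20 to 1.35. Every apical library was therefore above all lateral and all baseline libraries. The fitted log2 difference was 2.35 (SE 0.65, unadjusted p = 0.0022 and adjusted p = 1.00 by edgeR's quasi-likelihood test), with 2.29 within swine 1644 and 2.69 within swine 5385 as differences of means. DESeq2 gave 2.43 with an adjusted p of 0.0270. SLC19A2, a thiamine transporter, had apical levels from 4.95 to 7.26 log2 CPM (median 6.00) and lateral levels of 4.19, 4.81 and 3.91, with baseline levels from 3.32 to 4.11. Its log2 difference was 1.88 (SE 0.58), 0.88 within swine 1644 and 2.84 within swine 5385. SEMA6B, a semaphorin of axon guidance, had a smaller log2 difference of 0.87 (SE 0.39), and ADAMTS12, a secreted metalloproteinase, one of 0.64 (SE 0.35). For these 2 genes the baseline libraries overlapped the apical range.

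Of the 45 genes below, 35 had a symbol, and the 12 with the smallest p had log2 differences from -1.85 to -0.77. OLFML2A, an extracellular olfactomedin-like protein (ENSSSCG00000005593, chromosome 1 of Sscrofa11.1, 265577250 to 265604365), had the smallest p of them. Its apical levels ran from 3.60 to 5.01 log2 CPM (median 4.62), its lateral levels were 6.85, 6.35 and 5.21, and its baseline levels ran from 5.34 to 5.88. All 4 baseline libraries thus lay on the lateral side of the apical range. The log2 difference was -1.73 (SE 0.37, adjusted p = 0.414 by edgeR's test), and DESeq2 gave -1.61 with an adjusted p of 0.0233.

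TP53INP1, a p53-induced stress protein, had apical levels from 3.33 to 4.59 log2 CPM (median 3.87) and lateral levels of 5.02, 4.65 and 5.36. Its baseline levels, 5.58 to 6.48, were higher still, and its log2 difference was -0.98 (SE 0.34). CASP8AP2, a nuclear protein that binds caspase 8, was also below all lateral and baseline libraries, with apical levels from 2.30 to 3.71, lateral levels of 4.29, 4.34 and 3.83 and baseline levels from 3.87 to 4.75. ALDH2, the mitochondrial aldehyde dehydrogenase, had a log2 difference of -1.06 (SE 0.36), and IL34, a ligand of the macrophage colony-stimulating factor receptor, one of -0.86 (SE 0.32). TOP2A, a topoisomerase of dividing cells, had a log2 difference of -1.85 (SE 0.61) and PLEKHA7, an adherens junction protein, one of -1.30 (SE 0.43). VPS11, TMEM245, ANO8, HEATR5B and ADCK2 had log2 differences between -1.04 and -0.77. The mean of the baseline libraries lay on the lateral side for 35 of the 45 genes and for 3 of the 6 genes above. All 4 baseline libraries did so for 16 of the 45 and for 2 of the 6. The apical levels that chose these genes also set the range used here. These counts are therefore descriptions, and no such share over all genes was taken.

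**Figure D2:**
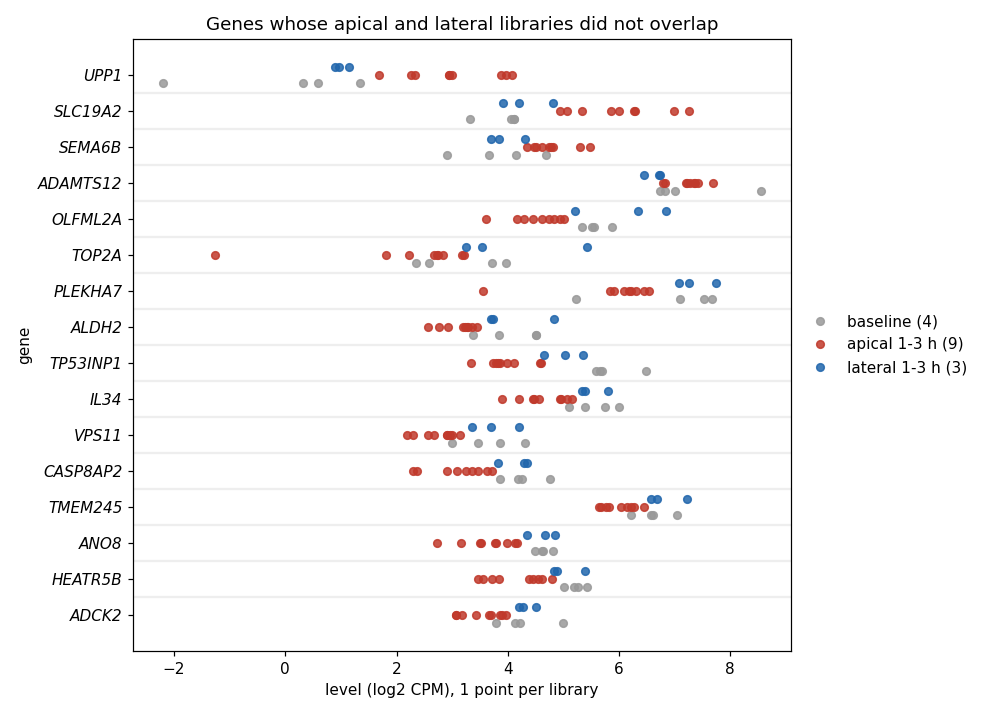
Levels (log2 CPM) of the 16 named genes whose 9 apical and 3 lateral libraries did not overlap, with 1 point per library and the 4 baseline libraries in grey. The gaps between red and blue points are narrow, at most 0.55, and the grey points lie mostly with the blue ones for the 12 genes below.

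Immediate early genes were high in both regions, except in 1 lateral library. Against the median of the baseline libraries, the median of the 23 tested members was higher by 1.12 to 3.50 on the log2 scale in the 9 apical libraries. It was higher by 2.60 and 3.42 in lateral libraries 4 and 5 of swine 1644, but was -0.65 in lateral library 6 of swine 5385, where only 3 of 23 members were above baseline. Lateral is where a biopsy was aimed, and whether lateral libraries 4 and 5 came from unharmed wall was not tested. Over the 12 libraries the fitted region difference of the list had a median of 0.42, beside 0.07 for all genes. That median was -0.13 without lateral library 6 and 1.11 without lateral library 5. Of the 23 members, 15 were above 0, none had an unadjusted p under 0.05, and the regions overlapped in every one.

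MAFF, a small Maf transcription factor, had apical levels from 3.74 to 7.89 log2 CPM (median 5.46) and lateral levels of 4.85 and 5.18 in swine 1644 but 0.64 in swine 5385. Its baseline levels ran from 0.72 to 2.21, so that 11 of the 12 libraries were above baseline and lateral library 6 was below it. The log2 difference over all libraries was 1.99 (SE 1.01, unadjusted p = 0.0648 by edgeR's test). ATF3, a stress-induced transcription factor, had apical levels from 5.23 to 9.99 (median 7.62), lateral levels of 6.28, 7.56 and 1.45, and baseline levels from 3.07 to 4.40. NR4A3, an orphan nuclear receptor, had the largest fitted log2 difference of the list, 2.47 (SE 1.23), with apical levels from 6.11 to 11.79 (median 8.18) and lateral levels of 6.10, 7.96 and 3.88. Its baseline levels, 1.95 to 6.51, overlapped both regions. FOS and EGR1, named after their values were seen, were likewise at 7.39 and 7.10 log2 CPM in lateral library 4 and at 7.80 and 9.26 in lateral library 5, but at 2.11 and 4.19 in lateral library 6.

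**Figure D3:**
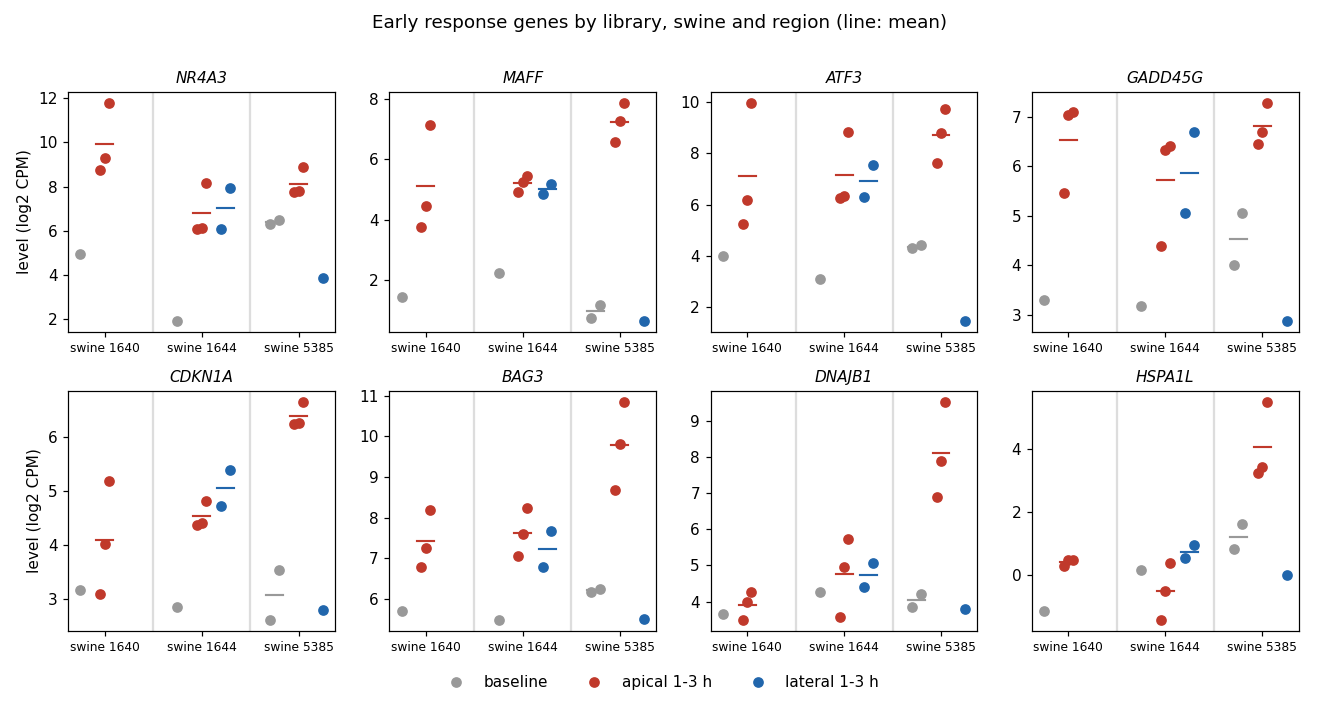
Levels (log2 CPM) of 8 stress-response genes by swine, with 1 point per library, colours for baseline, apical and lateral, and a line at each group's mean. In swine 5385 the single lateral point lies below all 3 apical points for each gene, whereas in swine 1644 the 2 lateral points lie among or above the apical ones for most of them.

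The region difference was therefore taken within each swine. In swine 1644, with 3 apical and 2 lateral libraries, no gene passed the adjusted threshold (edgeR) and 1015 of 20778 (4.88%) had an unadjusted p under 0.05, of which 775 were higher in the apical libraries. In swine 5385, 838 of 17864 genes (4.69%) were called, 541 higher (3.03%) and 297 lower (1.66%) in the apical libraries, but with 1 lateral library the test takes the spread from the 3 apical libraries alone and assumes that the lone library would vary like them. List medians and counts above 0 within a swine are taken from differences of mean levels, and values with an SE from the fit of that swine. Immediate early genes had a median log2 difference of -0.36 in swine 1644, with 7 of 23 above 0, and of 3.32 in swine 5385, with 23 of 23 above 0. The medians of all genes were 0.01 and -0.28, with 50.3% and 39.9% of them above 0. In swine 5385 alone 17 of the 23 were called, all higher.

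MAFF had a log2 difference of 6.91 (SE 0.65) in swine 5385 and of 0.13 (SE 0.60) in swine 1644. EGR1 had 4.84 (SE 0.56) and -0.88 (SE 0.80), and FOS, the founding member of the AP-1 family, 4.85 (SE 0.61) and -1.18 (SE 0.74). FOSB was 7.96 higher (SE 1.92) in swine 5385 without passing, with an adjusted p of 0.222 by edgeR's test. In swine 1644 the apical and lateral levels of MAFF, EGR1 and FOSB overlapped, and FOS was lower in the 3 apical libraries, at 5.33 to 7.38 log2 CPM, than in the 2 lateral ones. Lateral library 6 had 16970 genes at a CPM of at least 1, against 13043 to 14077 in the apical libraries of swine 5385, and the part of that gap in these differences was not tested. HBB, the only erythroid marker with many reads, was high in all 4 libraries of swine 5385, in both regions.

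The difference between the swine was itself tested as an interaction of region and swine. No gene passed an adjusted p of 0.05 by edgeR's test, 0 of 18201 (0%), with a lowest adjusted p of 0.121, and 2400 genes (13.2%) had an unadjusted p under 0.05. All 23 immediate early genes were among these, and all 23 interactions were negative, meaning a smaller apical excess in swine 1644, as were 10061 of all genes (55.3%). For MAFF the interaction was -7.07 (unadjusted p = 1.1e-05, adjusted p = 0.121 by edgeR's test). Without the 2 fibrous libraries 24 genes (0.132%) passed, 23 of them negative, but each swine then had 1 lateral library, so that the test took the spread from the apical libraries alone. The 24 included the transcription factors MYC (-6.07, adjusted p = 0.00495), MAFF (-6.81, adjusted p = 0.00789), EGR1 (-6.13, adjusted p = 0.0179) and FOSL2 (-4.69, adjusted p = 0.0203), and the phosphatases DUSP2 and DUSP5, which switch off MAP kinases, at -8.11 and -7.48 (both adjusted p = 0.00495, all by edgeR's test). RYR3, an intracellular calcium channel, was the gene with a positive interaction, 6.36. With 1 lateral library in swine 5385, an animal and a biopsy cannot be told apart here.

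**Figure D4:**
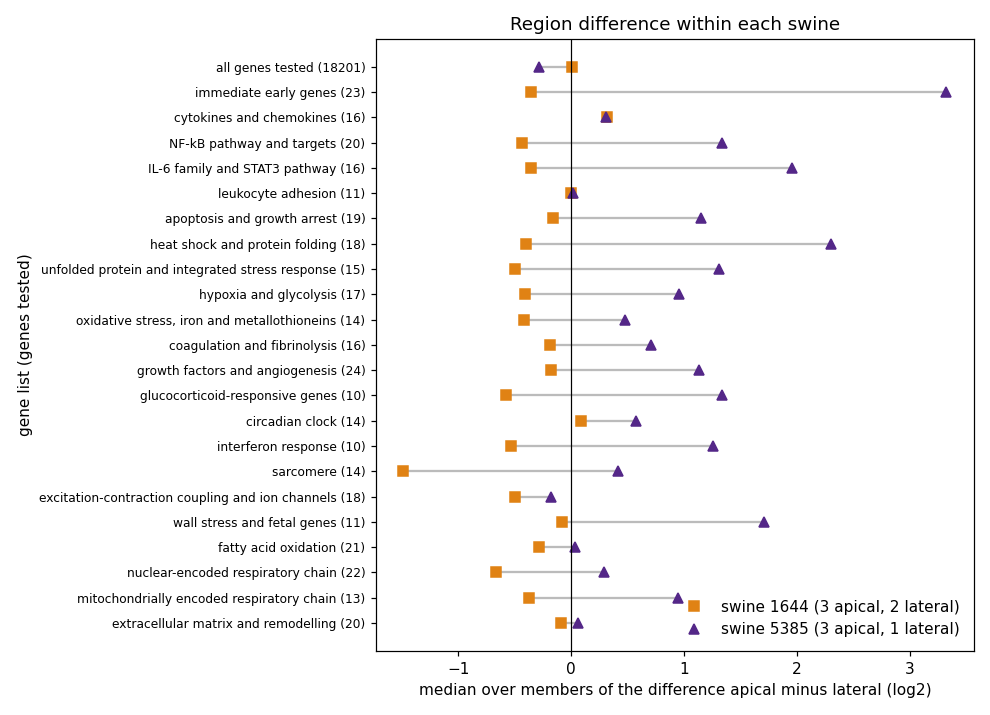
Median over the tested members of each gene list of the difference apical minus lateral (log2), taken within swine 1644 (squares) and swine 5385 (triangles), with the number of members in brackets. The points lie farthest apart for immediate early genes, at -0.36 and 3.32, and heat shock genes, at -0.40 and 2.30, beside 0.01 and -0.28 for all genes.

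Heat shock and protein folding genes had fitted differences above 0 in all 18 tested members, with a median of 0.82 beside 0.07 for all genes. With swine as a block 13 of 18 were above 0, with a median of 0.41. By differences of mean levels only BAG3 and DNAJB1 were above 0 within swine 1644, and by the fit of that swine HSF1, the heat shock factor, named after its values were seen, was too (0.10, SE 0.77), while all 18 were above 0 in swine 5385. BAG3, a co-chaperone of HSP70, was the only member with an unadjusted p under 0.05. Its apical levels ran from 6.79 to 10.85 log2 CPM (median 8.20), its lateral levels were 6.78, 7.67 and 5.51, and its baseline levels ran from 5.49 to 6.26. All 9 apical libraries lay above baseline, and so did both lateral libraries of swine 1644. The log2 difference was 2.04 (SE 0.95, unadjusted p = 0.0484, adjusted p = 1.00 by edgeR's test).

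The highest levels of these genes were those of the apical libraries of swine 5385. Their list medians were 1.69, 2.65 and 2.08 above baseline on the log2 scale, against -0.48 to 0.95 in the other 6 apical libraries. In the lateral libraries they were 0.82 and 0.46 in swine 1644 and -0.26 in swine 5385. DNAJB1, an HSP40 that delivers clients to HSP70, was at 6.88, 9.52 and 7.89 log2 CPM in the apical libraries of swine 5385 and at 5.06, 4.40 and 3.79 in the 3 lateral libraries. HSPA1L, a testis-enriched HSP70 whose reads may be shared with its near-identical neighbours, was at 3.23, 5.48 and 3.43 in those apical libraries and at 0.54, 0.97 and 0.01 in the lateral ones. In swine 5385 alone, with its 1 lateral library, 11 of the 18 were called higher, beside 3.03% of all genes, among them HSP90AA1 (2.90, SE 0.54), DNAJA1 (3.17, SE 0.56), HSPA8 (2.37, SE 0.49) and HSPB1 (1.92, SE 0.46). In the interaction 12 of 18 had an unadjusted p under 0.05, beside 13.2% of all genes, all 18 were negative, beside 55.3%, and none passed the adjusted threshold by edgeR's test.

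Promoters are shown for the 3 heat shock genes with the largest fitted differences, DNAJB1, HSPH1 and HSPA1L, chosen after their values were seen, because the factor that switches these genes on binds inverted repeats of a short motif. Each stretch holds 250 bases before and 50 bases from the start of the RefSeq gene in Sscrofa11.1, on the strand of the gene, and the annotated start may not be the one used in the heart. Capitals mark a match to GAANNTTC or TTCNNGAA, which each equal their own reverse complement, so both strands are covered, and which can overlap. The windows are chr2:64761422-64761721 on the plus strand for DNAJB1, chr11:7759479-7759778 on the minus strand for HSPH1 and chr7:23938629-23938928 on the minus strand for HSPA1L.
DNAJB1: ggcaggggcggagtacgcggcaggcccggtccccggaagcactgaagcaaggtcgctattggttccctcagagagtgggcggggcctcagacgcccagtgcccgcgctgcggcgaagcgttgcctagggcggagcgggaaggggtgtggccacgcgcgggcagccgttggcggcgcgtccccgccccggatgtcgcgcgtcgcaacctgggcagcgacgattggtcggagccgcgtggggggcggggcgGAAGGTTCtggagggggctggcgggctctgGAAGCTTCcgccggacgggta
HSPH1: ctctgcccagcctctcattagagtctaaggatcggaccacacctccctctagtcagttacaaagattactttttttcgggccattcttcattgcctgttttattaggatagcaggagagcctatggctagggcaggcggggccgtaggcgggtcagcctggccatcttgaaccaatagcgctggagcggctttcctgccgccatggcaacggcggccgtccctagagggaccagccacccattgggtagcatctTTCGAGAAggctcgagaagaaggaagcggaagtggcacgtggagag
HSPA1L: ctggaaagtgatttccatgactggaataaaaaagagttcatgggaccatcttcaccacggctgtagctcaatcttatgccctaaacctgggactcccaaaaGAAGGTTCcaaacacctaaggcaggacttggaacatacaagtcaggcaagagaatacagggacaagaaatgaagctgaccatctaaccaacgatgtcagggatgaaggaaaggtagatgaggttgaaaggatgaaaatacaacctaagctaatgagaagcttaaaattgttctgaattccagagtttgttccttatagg
DNAJB1 held 2 matches, and HSPH1 and HSPA1L held 1 each. Of the 17 tested members with a promoter in RefSeq, 9 held a match (52.9%), among them HSPA8 with 4, whereas BAG3 had none in this window. A match was present in 12.3% of 19501 promoters of the same length, 6.34% for GAANNTTC and 6.79% for TTCNNGAA, and in 2 of 22 immediate early genes (9.09%). A match is a description of the letters and not a measured binding site.

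The cytokine and chemokine list had 16 tested members, of which 12 were above 0, with a median difference of 0.20 beside 0.07 for all genes. CXCL14, a chemokine of resident tissue cells, was the only one with an unadjusted p under 0.05. It was at 5.22 log2 CPM in lateral library 4, at -0.48 and -0.71 in the other lateral libraries and from -2.20 to 2.87 in the apical ones, and its log2 difference of -3.23 (SE 1.25) turned to 1.50 without lateral library 4. CCL2, the chemokine that attracts monocytes, named after its values were seen, was at 4.13 to 9.12 (median 6.51) in the apical libraries, at 8.49 and 6.28 in lateral libraries 4 and 5 and at 2.87 in lateral library 6, with baseline levels from 2.04 to 3.03. Its log2 difference was 0.04 over all libraries and 3.91 (SE 0.54) in swine 5385. CCL4 and IL18, the other members given by the naming rule, had log2 differences of 0.85 (SE 0.67) and 0.83 (SE 0.90).

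Targets of NF-kB and of the IL-6 family had medians below 0 in swine 1644 and above 0 in swine 5385. The NF-kB list had 8 of 20 members above 0 and a median of -0.09, with -0.44 within swine 1644 and 1.33 within swine 5385. The IL-6 and STAT3 list had 7 of 16 above 0 and a median of -0.06, with -0.36 and 1.95. CEBPD, a C/EBP factor of the acute phase response, was the member with the smallest p. Its apical levels ran from 4.55 to 7.22 log2 CPM (median 5.74), and its lateral levels were 8.93 and 6.96 in swine 1644 and 3.35 in swine 5385, so that the lateral libraries held both the highest and the lowest value of the 12. The log2 difference was -1.85 (SE 0.66, unadjusted p = 0.0129 by edgeR's test) over all libraries, -0.33 without lateral library 4 and -2.40 without lateral library 6. It was -2.13 (SE 0.84) in swine 1644 and 2.07 (SE 0.57) in swine 5385.

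In swine 5385 alone, against its 1 lateral library, 9 of 16 members of the IL-6 and STAT3 list were called higher, beside 3.03% of all genes, among them OSMR, the oncostatin M receptor (3.03, SE 0.49), STAT3 itself (1.99, SE 0.46) and JAK2, its kinase (2.06, SE 0.48). From the NF-kB list 6 of 20 were called higher, with BCL3, a nuclear IkB protein, at 2.28 (SE 0.55) against -1.47 (SE 0.59) in swine 1644. Interactions with an unadjusted p under 0.05 numbered 9 of 16 and 8 of 20, beside 13.2% of all genes. The leukocyte adhesion list had 3 of 11 members above 0, a median of -0.08 and none with an unadjusted p under 0.05. SELP, P-selectin of activated endothelium, was at 5.41 log2 CPM in lateral library 4 and at 2.27 and 2.21 in the other lateral libraries, and the apical levels ran from -0.08 to 4.36. Neutrophil markers summed to 0.92 to 40.6 CPM in the apical and to 3.95 to 26.7 CPM in the lateral libraries. Monocyte and macrophage markers reached 722 CPM in apical library 6 and 658 CPM in lateral library 4, and 71.6 to 247 CPM in the other 10 libraries.

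The apoptosis and growth arrest list had 12 of 19 members above 0, a median of 0.17 and none with an unadjusted p under 0.05. CDKN1A, the p21 inhibitor of the cell cycle, had apical levels from 3.10 to 6.66 log2 CPM (median 4.82), lateral levels of 4.72, 5.39 and 2.80, and baseline levels from 2.62 to 3.55. Only lateral library 6 lay within the baseline range among the lateral libraries. Its log2 difference was -0.64 (SE 0.61) in swine 1644 and 3.63 (SE 0.55) in swine 5385, where 8 of the 19 were called higher, beside 3.03% of all genes. GADD45G, a growth arrest gene, went from -0.20 (SE 0.76) to 4.01 (SE 0.54), while BCL2L1, which protects from apoptosis, differed little between the swine, with 0.38 and 0.49 as differences of means.

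The unfolded protein and integrated stress list had 10 of 15 members above 0 and a median of 0.32. SESN2, a stress-induced inhibitor of mTOR signalling, had apical levels from 1.88 to 6.26 log2 CPM (median 3.57) and lateral levels of 2.83, 1.30 and 2.48, with baseline levels from 0.05 to 2.06. Its log2 difference was 2.19 (SE 0.97, unadjusted p = 0.0381, adjusted p = 1.00 by edgeR's test), 0.65 (SE 0.96) in swine 1644 and 3.13 (SE 0.61) in swine 5385. The 3 apical libraries of swine 5385 were the highest of the 12.

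The hypoxia and glycolysis list had 11 of 17 members above 0, a median of 0.30 and none with an unadjusted p under 0.05. ADM, the vasodilator adrenomedullin, had a log2 difference of 2.25 (SE 1.07) with apical levels from 1.85 to 7.19 log2 CPM (median 3.76) and lateral levels of 3.29, 1.98 and 2.63. VEGFA, the endothelial growth factor, had 1.08 (SE 0.63), and LDHA, lactate dehydrogenase A, -0.89 (SE 0.48), with its highest level, 6.12, in lateral library 4. The list of oxidative stress, iron and metallothioneins had 7 of 14 above 0 and a median of 0.07, equal to that of all genes. SRXN1, which reactivates peroxiredoxins, was at 2.20 to 7.18 log2 CPM in the apical libraries (median 5.72), at 4.63 and 4.77 in lateral libraries 4 and 5 and at 0.22 in lateral library 6, with baseline levels from -1.24 to 1.27. It was 6.76 higher (SE 0.67) in swine 5385 and 1.35 (SE 0.80) in swine 1644, on the log2 scale. NFE2L2, the NRF2 factor, had -0.51 (SE 0.30).

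The coagulation and fibrinolysis list had 11 of 16 members above 0 and a median of 0.29. ENTPD1, which breaks down extracellular ATP and so restrains platelets, was lower with an unadjusted p of 0.0093 by edgeR's test, a log2 difference of -1.18 (SE 0.40) that was -0.43 without lateral library 5. Its apical levels ran from 3.98 to 5.50 log2 CPM and its lateral levels were 5.40, 6.74 and 5.03, so the regions overlapped. F13A1, a coagulation factor chain made by macrophages, was at 8.39 in lateral library 4 and at 4.12 and 4.22 in the other lateral libraries, and its log2 difference of -1.55 (SE 0.72) turned to 1.20 without lateral library 4.

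Growth factors and angiogenesis genes had 17 of 24 members above 0 and a median of 0.22. APLN, the ligand of the apelin receptor, had 1.30 (SE 0.62) and PDGFA -1.02 (SE 0.64). Glucocorticoid-responsive genes, switched on by stress hormones through the glucocorticoid receptor, had 4 of 10 above 0 and a median of -0.05. Against baseline their median was 0.72 to 2.39 in the apical libraries, 1.45 and 1.94 in lateral libraries 4 and 5 and -0.08 in lateral library 6. The circadian clock list had 11 of 14 above 0 and a median of 0.32, with no member at an unadjusted p under 0.05. DBP, a clock output factor, was at 0.13 to 4.16 log2 CPM in the apical libraries (median 1.73) and at 0.69, 0.77 and 1.91 in the lateral ones, with baseline levels from 3.16 to 4.42. It was below every baseline library in 11 of the 12 libraries, and the hour of day of the biopsies was not used here. The interferon list had 7 of 10 above 0, and a median of 0.17. In swine 1644 none was above 0 by differences of mean levels and 1 by the fit, IRF7, named after its values were seen (0.06, SE 0.85).

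**Figure D5:**
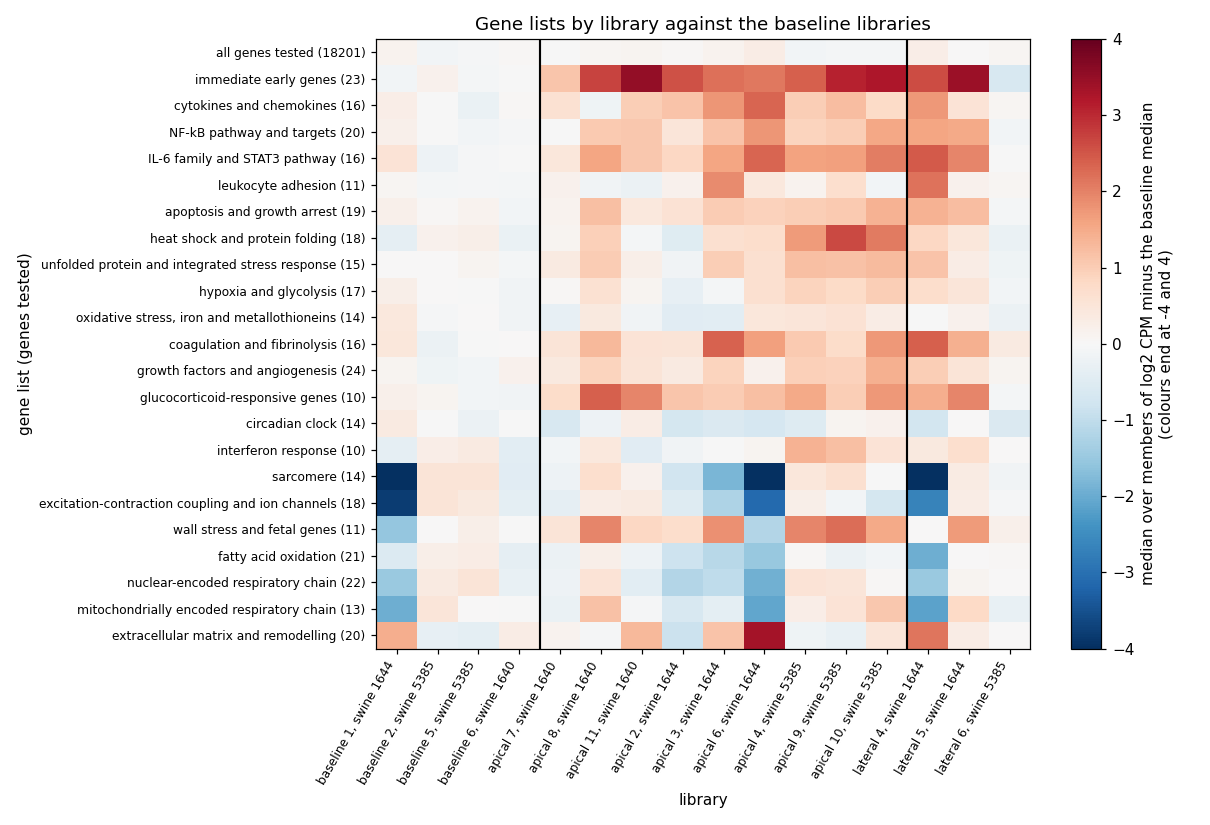
Median over the tested members of 22 gene lists, and of all genes, of the level in each library minus the median of the 4 baseline libraries (log2), in colour, with libraries in columns grouped by region and swine. Immediate early genes are above baseline in every apical library and in lateral libraries 4 and 5 but not in lateral library 6, at -0.65, and sarcomere genes are far below baseline in apical library 6 and lateral library 4.

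Genes of the contractile apparatus and of energy metabolism were lowest in the 2 fibrous libraries, and the direction of most of these lists turned without them or with swine as a block. Sarcomere genes had medians of -8.74 and -4.92 against baseline in apical library 6 and lateral library 4, of -1.84 in apical library 3 and of between -0.76 and 0.68 in the other 9. Over the 12 libraries 13 of 14 were above 0, with a median of 0.38 and none with an unadjusted p under 0.05. Without the fibrous libraries 6 of 14 were above 0, with a median of -0.0031 beside 0.19 for all genes, and with swine as a block 2 of 14, with -0.65 beside -0.07. ACTN2, which anchors actin at the Z-disc, was at 2.28 log2 CPM in apical library 6, at 6.04 in lateral library 4 and at 11.36 and 10.48 in the other lateral libraries, and the median of the 9 apical libraries was 11.02. Ion channel and calcium handling genes had 11 of 18 above 0 and a median of 0.08, and fatty acid oxidation genes 14 of 21 and 0.24. Without the fibrous libraries these were 5 of 18 with a median of -0.21 and 6 of 21 with -0.11, and with the block 3 of 18 with -0.41 and 5 of 21 with -0.28.

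The nuclear-encoded respiratory chain had 19 of 22 above 0 with a median of 0.21, and the 13 mitochondrially encoded genes were all above 0 with a median of 0.33. With swine as a block none of the 22 and none of the 13 were above 0, with medians of -0.46 and -0.33. Without the fibrous libraries 4 of 22 and 9 of 13 were, with medians of -0.07 and 0.03. Within swine 1644 none of either list was above 0. ND4, a subunit of complex I, had a log2 difference of 0.44 (SE 0.79) over all libraries and of -0.34 with swine as a block, so its sign turned with that choice. The wall stress and fetal list had 9 of 11 above 0 and a median of 0.73. XIRP1, a Xin repeat protein of the intercalated disc, had apical levels from 1.88 to 13.46 log2 CPM (median 11.37) and lateral levels of 5.47, 11.43 and 7.77, and its log2 difference was 5.37 (SE 0.64) in swine 5385 and 0.18 (SE 2.15) in swine 1644. FLNC, a filamin of the Z-disc, was at 3.23 (SE 0.56) and 0.07 (SE 1.21). Extracellular matrix genes had 10 of 20 above 0 and a median of 0.05, which was 1.11 without lateral library 4 and -0.55 without apical library 6, and FN1, fibronectin, was highest in apical library 6 and lateral library 4, at 10.98 and 10.86 log2 CPM.

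At 14 days the same comparison, with 7 apical and 6 lateral libraries, gave no called gene of 18097 (0%) by edgeR's test, a lowest adjusted p of 0.646 and 961 genes (5.31%) at an unadjusted p under 0.05. The immediate early list had a median difference of 1.54 at 14 days, beside -0.09 for all genes, and of 0.51 at 1–3 h in the same fit. NR4A3 was 2.31 higher at 14 days (unadjusted p = 0.0228, adjusted p = 0.646 by edgeR's test). Heat shock genes had 0.65 and extracellular matrix genes 1.32 at 14 days. Of these libraries, apical library 5 of swine 1644 was fibrous by the same limit, and no lateral one was. Without it, a choice made after the data were seen, the medians were 0.69 for immediate early, 0.61 for heat shock and 0.35 for matrix genes. The difference between the 2 times was tested directly, and 0 of 18097 genes (0%) passed by edgeR's test, with a lowest adjusted p of 0.0957 and 1004 genes (5.55%) at an unadjusted p under 0.05. UPP1 went from 2.32 at 1–3 h to -1.06 at 14 days, a difference of 3.38 (unadjusted p = 0.0166, adjusted p = 0.674 by edgeR's test). UPP1 was picked for its values at 1–3 h, which enter this difference, so its p is a description only.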

How the data were processed

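Micro-EMB RNA had been sequenced with a stranded total RNA kit for small inputs. Per the submitters' processing notes, the authors used STAR, featureCounts and DESeq2 with Sscrofa 11.1, and the deposited table holds whole-number counts per Ensembl gene without normalization or exclusion. Counting disregarded strand, so reads of overlapping and antisense genes cannot be told apart. Of 31907 identifiers 15029 were paired with a symbol by a reference table, and list members without one, TNF, IL1B and MYH7 among them, were not tested. MYH6 reads may be shared with its paralog. RNA was isolated in randomised batches that the labels do not give.

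Libraries were grouped by the labels for location, time and swine. Counts were fitted with edgeR 4.0.16 (quasi-likelihood test, TMM) in R 4.3.3, on genes that reached a CPM of 1 in 20% or more of the fitted libraries, without a swine term, and genes with an adjusted p of 0.05 or less (Benjamini-Hochberg) were called. Levels are given as log2 CPM (prior count 2), and differences are apical minus lateral. DESeq2 1.42.0 and limma 3.58.1 (limma-voom) were alternatives, as were other filters and normalizations, swine as a block, and each library left out. The code was tested on simulated counts. Total counts ranged from 5886133 to 10888848 per library. Sampling error was not measured apart from the spread between biopsies. The lowest level given, -2.20 log2 CPM, stands for no read, and levels near it rest on few reads. The highest correlation of log2 counts between libraries was 0.946, so none was treated as a duplicate.

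Swine pairs the libraries by label, since regions of 1 animal share it. The mean correlation of deviations from the group means across regions was -0.11 within a swine (n = 9 pairs) and 0.06 between swine (n = 18 pairs). Deviations cancel within a group, so these values are tied to each other and cannot decide whether swine pairs the libraries. An animal without a lateral library enters only the value between swine.

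The 12 libraries, the gene lists and the markers were chosen with earlier results of these data known, which holds for every list. Named were the genes with the smallest p in each direction whose regions did not overlap, up to 12, since no gene was called, and the 3 members of each list with the smallest p. Most genes outside this rule are marked where they stand. The others are OSMR, STAT3, JAK2, HSP90AA1, DNAJA1, HSPA8, HSPB1, FOSB, MYC, FOSL2, DUSP2, DUSP5 and RYR3. They too were named after their values were seen. A few genes that the rule or the marker lists held are not reported here. No p was computed over a list.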

Additional observations from a re-analysis of the deposited data

Results flagged for a closer look

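For 9 of the 76 genes named by the rule, 1 apical library lay far from the other 8. Its gap to the nearest was large against the whole range of the 9 libraries. Chance alone marks about 1 in 20 such groups, and the 9 genes are not independent of each other. Apical library 6 of swine 1644, 1 of the 2 fibrous libraries, was the low one for 7 of them. It held PLEKHA7 at 3.56 log2 CPM, the cardiomyocyte genes CSRP3 at 0.62, ACTN2 at 2.28, TRDN at 2.91 and XIRP1 at 1.88, the potassium channel gene KCNH2 at -0.19 and PDK4, a kinase that restrains glucose oxidation, at 1.34. LDHA was lowest in apical library 2 of swine 1644, at 2.55 log2 CPM, and TOP2A in apical library 10 of swine 5385, at -1.27.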

How the results depend on the processing

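The regions were compared under 26 other choices, and all gave 0 called genes except DESeq2 (5), all micro-EMB libraries in 1 fit (12), swine 5385 alone (838), and leaving out lateral library 5 (1) or 6 (6), so that leaving out 1 library gave 0 to 6. Genes with an unadjusted p under 0.05 ranged from 192 to 459 when 1 library was left out, the lowest without lateral library 4 and the highest without lateral library 6, and numbered 509 without the filter on low counts. The interaction of region and swine gave 24 called genes without the fibrous libraries and 0 to 1 with 1 library left out, the 1 being DUSP2 without lateral library 4. The contrast with 14 days gave 0 to 7 with 1 library left out, 2 without apical library 9, 4 without lateral library 5 and 7 without lateral library 6. The lateral library of swine 5385 could not be left out of the interaction, which then has no value. The median of 15 of the 22 gene lists took the other sign with some 1 library left out, of 9 without lateral library 4 and of 6 without lateral library 6, and of 8 each with swine as a block and without the fibrous libraries. Signs of single log2 differences turned as follows, and the cause was not tested.

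With swine as a block, which pairs the regions within an animal, 0 genes were called and 321 had an unadjusted p under 0.05. Under the block 9 signs turned, HSPA1L at -0.040, RSAD2 at -0.34, ACTN2 at -0.070, UQCRC1 at -0.32, UQCRC2 at -0.23, ATP5PO at -0.50, ND4L at -0.17, ND4 at -0.34 and COX3 at -0.32. In swine 1644 alone 14 turned, NR4A3 at -0.22, GADD45G at -0.20, CDKN1A at -0.64, HSPA1L at -1.35, PPP1R15A at -0.76, RSAD2 at -1.10, IFIH1 at -0.37, ACTN2 at -0.47, UQCRC1 at -0.83, UQCRC2 at -0.55, ATP5PO at -0.89, ND4L at -0.70, ND4 at -0.93 and COX3 at -0.97. In swine 5385 alone 12 turned, CXCL14 at 0.29, IL18 at -0.59, BCL3 at 2.28, TNFAIP2 at 0.16, CEBPD at 2.07, SOCS1 at 0.36, SELP at 1.02, LDHA at 0.16, F13A1 at 0.71, PDGFA at 1.54, KLF9 at 0.73 and MYL4 at -0.20. Without the fibrous libraries 6 turned, CXCL14 at 0.61, SELP at 1.01, LDHA at 0.032, F13A1 at 1.23, PDGFA at 0.0027 and UQCRC2 at -0.041. With all 17 libraries of 1–3 h, CCL4 was at -0.22 and KLF9 at 0.13. With 1 library left out, 11 turned, all without lateral library 4, and ranged from -4.17 to 1.50 (CXCL14), -1.52 to 0.85 (SELP), -1.26 to 0.11 (LDHA), -2.09 to 1.20 (F13A1), -1.96 to 0.75 (FN1), -0.0065 to 0.74 (UQCRC1), -0.11 to 0.43 (UQCRC2), -0.063 to 0.60 (ATP5PO), -0.00093 to 1.02 (ND4L), -0.026 to 1.01 (ND4) and -0.062 to 1.35 (COX3). With 3 lateral libraries from 2 animals, differences below the spread between biopsies were not detectable here.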

Other observations

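These genes were named after their values were seen. ATP8, a mitochondrially encoded subunit of ATP synthase, separated swine 5385 from the other animals, whichever region was sampled. It was at 4.36 to 5.30 log2 CPM in the 6 libraries of swine 5385, baseline included, and at 6.33 to 10.12 in the 10 libraries of swine 1640 and 1644. The other 12 mitochondrially encoded genes overlapped between the same animals, COX1, a subunit of cytochrome c oxidase, being at 12.87 to 14.35 and 10.51 to 14.27 log2 CPM. ATP8 overlaps ATP6 in the RefSeq annotation of the pig, so that reads of the shared bases may be split between them or left out.

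CRACDL was 1 of the 2 genes that DESeq2 called higher in the apical libraries (log2 difference 3.37, adjusted p = 0.0109), and edgeR's test gave 3.40 (SE 0.88, unadjusted p = 0.00138, adjusted p = 0.966). Its lateral levels were 2.80, 3.18 and 3.31 log2 CPM, and its apical levels ran from 3.25 to 7.74, so that only apical library 11 lay within the lateral range. APOA1, the main protein of high-density lipoprotein, was at 11.09 log2 CPM in lateral library 4, at 6.09 and 4.70 in the other lateral libraries and at 1.82 to 5.92 in the apical ones.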
